A study of Solanum lycopersicum with 6 samples.

Results

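The 3 genes described here, Solyc03g026270, Solyc03g026280 and Solyc03g124110, are the CBF/DREB1 genes of tomato chromosome 3. They were taken from the count table by identifier, without its version suffix, and all 3 were found among 35603 genes. RNA was sequenced from leaves of 4-week-old wild-type tomato (Solanum lycopersicum) of the cultivar M82, which is widely used in the laboratory. Plants were grown at 24 °C with 16 h of light and exposed to heat stress (HS) at 45 °C for 0, 1 or 6 h. There were 2 biological replicates per time, and the 0 h plants were the untreated control. Each replicate consisted of pooled plants. The samples include no group kept at 24 °C until the later samplings, and the hours of harvest are not given. The length of HS and the time of day therefore cannot be told apart. Library depth was between 25147160 and 30738632 counts.

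CBF (C-repeat binding factor) proteins, also called DREB1, are transcription factors with an AP2/ERF DNA-binding domain. They bind the C-repeat or dehydration-responsive element, whose core is CCGAC, in the promoters of their target genes. In Arabidopsis their genes are switched on within a short time of transfer to cold by regulators such as ICE1 and the CAMTA factors. The proteins in turn activate cold-regulated genes, dehydrins among them, that raise freezing tolerance. In Arabidopsis the CBF genes also follow the circadian clock, and proteins of the related DREB2 group act in drought and heat. No protein or promoter sequence of the 3 genes was used here, and no table used here pairs these identifiers with symbols.

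In the M82 gene models (version 1.1.0) the 3 genes lay side by side on the plus strand of chromosome 3, with no other annotated gene between them. Solyc03g026270 spanned chr3:3679642-3680259 (618 bp), Solyc03g026280 spanned chr3:3682758-3683654 (897 bp) and Solyc03g124110 spanned chr3:3685715-3686581 (867 bp). The gaps were 2498 bp and 2060 bp, and the whole cluster took 6940 bp. No gene of the table overlapped any of the 3. The deposited spans do not separate exons, introns and UTRs. Reads were counted only at a mapping quality of at least 30, so reads that fit more than 1 of these related genes may have been lost, and their number is not known.

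Solyc03g026270 was also a target of the chromatin contact assay (3C-qPCR) of the study, in which ligation products between distant pieces of DNA are measured by quantitative PCR. The primers of that assay are shown because they mark the contact that was probed at this locus, and they are given 5′ to 3′ with no part marked in capitals. Their positions in the genome were not determined here.
Forward primer: ttgctcgtgtgacaattgca
Reverse primer: acaagcagaacggcctctta

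All 3 genes were weakly expressed before HS, and all 3 were higher after 1 h. They then parted. At 6 h Solyc03g026280 and Solyc03g124110 were called higher than at 0 h, whereas Solyc03g026270 was called lower than at 1 h and was not called different from 0 h. Values below are CPM, counts scaled to a common library size with TMM factors that allow for differences in library composition. Changes were tested with edgeR's quasi-likelihood test over 19123 genes and called where the p-value after Benjamini-Hochberg adjustment was under 0.05.

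**Figure D1:**
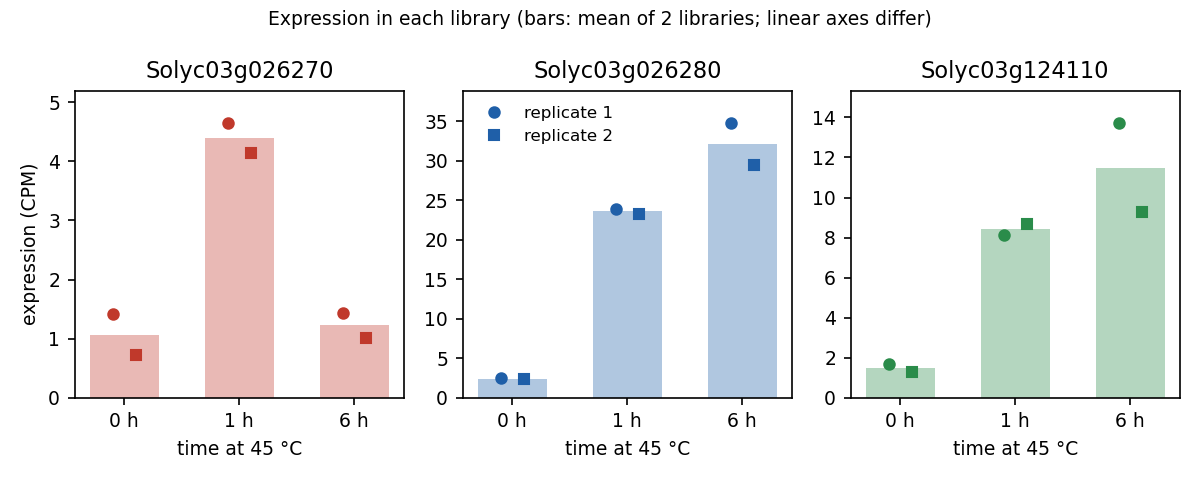
Expression (CPM, linear axes of different range) of the 3 genes at 0, 1 and 6 h of HS. Circles and squares are replicates 1 and 2, and bars are means of 2 libraries. Solyc03g026270 peaked at 1 h with a mean of 4.39 CPM, whereas Solyc03g026280 and Solyc03g124110 had their highest means at 6 h, 32.0 and 11.5 CPM.

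Solyc03g026280 was the most strongly expressed of the 3 genes and changed most. It had 2.50 and 2.32 CPM in the 0 h libraries, 23.9 and 23.3 CPM at 1 h, and 34.7 and 29.4 CPM in those of 6 h. The libraries of the 3 times did not overlap, and both 6 h values lay above both 1 h values. Relative to 0 h it rose 9.77-fold at 1 h, a log2 fold change of 3.29 with an SE of 0.155 (adjusted p = 1.11e-06 by edgeR). The rise after 6 h was 13.3-fold, or 3.73 on the log2 scale with an SE of 0.155 (adjusted p = 2.35e-06 by edgeR). With signs kept, these changes exceeded those of 97.5% of the genes tested at 1 h and 99.2% at 6 h. The further change from 1 h to 6 h was called as well, with a log2 fold change of 0.44 (95% interval 0.15 to 0.73, edgeR adjusted p = 0.0133). That call was lost without any one of 3 libraries, with edgeR adjusted p-values of 0.0825 and 0.105 without replicate 1 and 2 of 1 h and 0.0785 without replicate 1 of 6 h.

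Solyc03g124110, the last gene of the cluster, followed the same course at a lower level. The 0 h libraries had 1.71 and 1.28 CPM, those of 1 h had 8.13 and 8.70 CPM, and those of 6 h had 13.7 and 9.28 CPM. Both heated groups lay well above 0 h, and the 6 h replicates were farther apart than those of the other times. With 41 and 32 counts at 0 h, it passed the filter of at least 50 counts in at least 2 libraries through heated libraries alone. A gene kept in this way could hardly be called lower than at 0 h. With no filter on low counts its log2 fold changes against 0 h were 2.49 at 1 h and 2.93 at 6 h. The gene rose 5.62-fold by 1 h, a log2 fold change of 2.49 with an SE of 0.267 (adjusted p = 7.43e-05 by edgeR). By 6 h the rise was 7.68-fold, a log2 fold change of 2.94 with an SE of 0.264 (adjusted p = 5.39e-05 by edgeR). From 1 h to 6 h the log2 fold change was 0.45 (95% interval -0.06 to 0.96, edgeR adjusted p = 0.106), so a difference between the 2 heat times was not shown. The higher of the 6 h libraries weighed on this value, which was 0.17 without replicate 1 of 6 h and 0.73 without replicate 2, where it was called (edgeR adjusted p = 0.0249). It was also called when libraries were scaled by total count alone (log2 fold change 0.87, edgeR adjusted p = 0.0049) or by upper quartiles (0.68, edgeR adjusted p = 0.0228).

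Solyc03g026270, the first gene of the cluster, was at its highest at 1 h. Its level was 1.42 and 0.721 CPM before HS, 4.64 and 4.14 CPM after 1 h, and 1.43 and 1.02 CPM after 6 h. Both 1 h libraries lay above all others, while those of 0 h and 6 h overlapped. The 0 h libraries held 34 and 18 counts of this gene, those of 6 h 46 and 35, and those of 1 h 126 and 99. The gene passed the filter of at least 50 counts in at least 2 libraries through the 1 h libraries alone. Kept in this way, it could hardly be called lower at 1 h than at the other times. The log2 fold change at 1 h was 2.04 (SE 0.353, edgeR adjusted p = 0.0011), and it was also 2.04 with no filter on low counts (edgeR adjusted p = 5.29e-05).

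Between 1 h and 6 h Solyc03g026270 fell, and the log2 fold change was -1.84 (95% interval -2.61 to -1.07, edgeR adjusted p = 0.00141). The direction of this call was likewise all but set by the filter. With no filter on low counts the value was -1.86. The log2 fold change that was left at 6 h, relative to 0 h, was 0.19 (edgeR adjusted p = 0.679). Its 95% interval, -0.67 to 1.06, covers falls as well as rises, so a return to the initial level was not established. The value rested on single libraries, since it was -0.27 without replicate 2 of 0 h, -0.04 without replicate 1 of 6 h, 0.45 without replicate 2 of 6 h and 0.75 without replicate 1 of 0 h. None of these was called. The gene thus ended below the other members in its 6 h change, since their intervals began at 3.38 and 2.34.

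**Figure D2:**
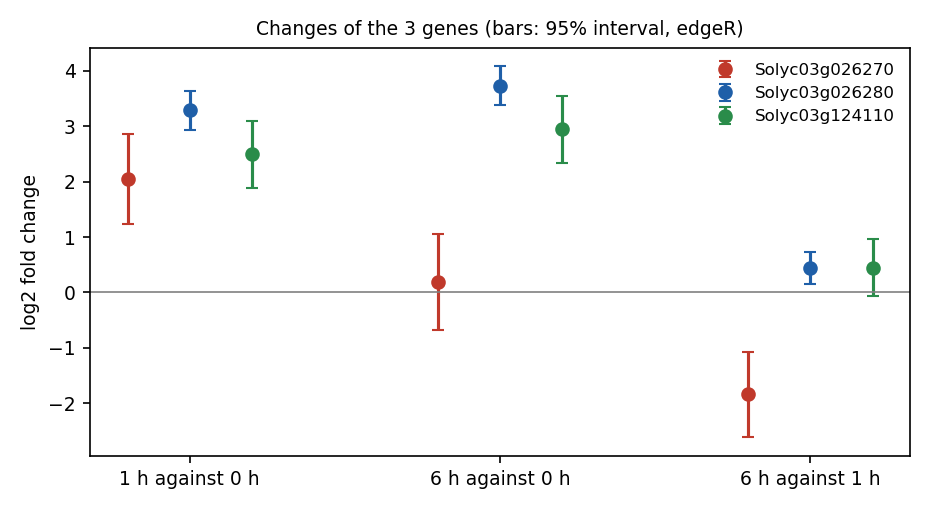
Log2 fold changes (vertical axis) of the 3 genes in the 3 comparisons, with 95% intervals from the edgeR fit over 2 libraries per time. Of the 6 h changes against 0 h, only that of Solyc03g026270 has an interval, from -0.67 to 1.06, that includes 0. Of the changes from 1 h to 6 h, its interval lies below 0, whereas that of Solyc03g124110, from -0.06 to 0.96, includes 0.

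Calls in either direction were common among all genes. With signs kept, so that every fall ranks below every rise, the log2 fold changes of Solyc03g026270 and Solyc03g124110 were ranked among all genes. They exceeded those of 94.1% and 95.7% of the genes tested at 1 h. At 6 h against 0 h they exceeded those of 58.6% and 98.3%. The 58.6% belongs to Solyc03g026270, whose change of 0.19 was small and not called. For 1 h against 0 h, 32.2% of the genes tested were called higher and 31.3% lower. All 3 CBF/DREB1 genes were called higher. Solyc03g026270 and Solyc03g124110 had passed the filter through heated libraries alone, so calls lower than 0 h could hardly arise for them. For 6 h against 0 h, 30.9% were called higher and 28% lower, and 2 of the 3 genes were called higher. For 6 h against 1 h, 34.7% were called higher and 31.7% lower, with 1 of the 3 genes called in each direction. The median log2 fold change of all genes tested was 0.00 at 1 h and 0.03 at 6 h relative to the control, and 0.06 between the heat times. Scaling by total count alone moved these medians, in the same order, to -0.15, 0.30 and 0.48. In bulk leaf RNA, a change in the number of cells that express a gene and a change in the RNA per cell cannot be told apart.

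Levels were compared between the genes per kilobase of gene span, in CPM per kb. At 0 h, Solyc03g026280 had 2.69 ± 0.139 (SD, n = 2), Solyc03g026270 had 1.73 ± 0.795 and Solyc03g124110 had 1.72 ± 0.347. The last 2 overlapped and could not be ordered. At 1 h the order was Solyc03g026280 with 26.3 ± 0.517, Solyc03g124110 with 9.71 ± 0.465 and Solyc03g026270 with 7.10 ± 0.566, and no library of one gene overlapped that of the next. At 6 h the order was the same, at 35.7 ± 4.25, 13.3 ± 3.62 and 1.98 ± 0.473 CPM per kb. The summed level of the cluster was 4.98 ± 0.917 CPM before HS, 36.4 ± 0.411 CPM after 1 h and 44.8 ± 7.24 CPM after 6 h.

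The make-up of the cluster was followed within each library, where it does not depend on how libraries are scaled. Counts were not divided by gene span here, 618 bp for Solyc03g026270 and 897 bp for Solyc03g026280. The shares thus serve to compare libraries and not the levels of the genes. Of the counts of Solyc03g026280 and Solyc03g026270 together, Solyc03g026280 held 63.8% (exact Clopper-Pearson 95% interval 53.3% to 73.5%) and 76.3% (65.2% to 85.3%) in the 0 h libraries. Those of 1 h gave 83.8% (81.0% to 86.3%) and 84.9% (81.9% to 87.5%), and those of 6 h gave 96.1% (94.8% to 97.1%) and 96.7% (95.4% to 97.7%). The shares of the 3 times did not overlap between libraries, but the interval of replicate 2 of 0 h, 65.2% to 85.3%, overlapped those of 1 h. With 2 libraries a time an exact permutation test could not reach the threshold, and the intervals cover counting error only.

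Of all counts of the cluster, Solyc03g026270 held 25.2% and 16.7% in the 0 h libraries, 12.6% and 11.5% in those of 1 h, and 2.86% and 2.56% in those of 6 h. The part of Solyc03g124110 stayed between 22.2% and 30.4% in all 6 libraries. That of Solyc03g026280 went from 44.4% and 53.7% before HS to 65.2% and 64.4% after 1 h and 69.6% and 74.0% after 6 h. Nearly all counts of the cluster thus came from Solyc03g026280 and Solyc03g124110 by 6 h.

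**Figure D3:**
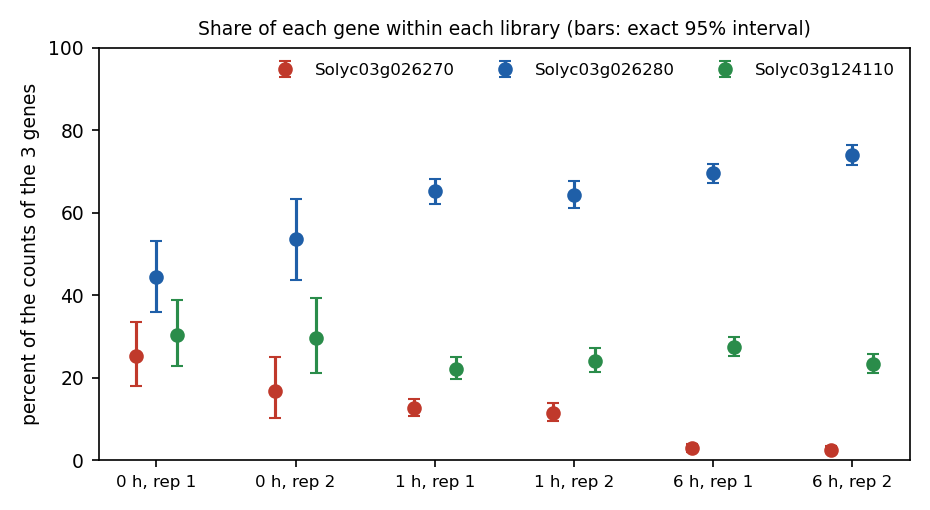
Percent of the counts of the 3 genes held by each gene in each library (0, 1 and 6 h, replicates 1 and 2), with exact 95% intervals. Solyc03g026270 goes from 25.2% and 16.7% at 0 h to 2.86% and 2.56% at 6 h, and Solyc03g026280 holds the largest share in each library.

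Across the 6 libraries, the log2 expression of Solyc03g026280 and Solyc03g124110 had a Pearson correlation of 0.993, given as a description. Solyc03g026270 had a correlation of 0.468 with Solyc03g026280 and 0.459 with Solyc03g124110. These points share libraries and fall into 3 times, so they are not 6 independent conditions. By the same measure over the 19122 other genes tested, Solyc03g112810 was most like Solyc03g026280 (r = 0.9989), Solyc03g117490 most like Solyc03g124110 (r = 0.9982) and Solyc01g057445 most like Solyc03g026270 (r = 0.9987). A correlation above 0.99 was reached by 78 genes for Solyc03g026280, by 20 for Solyc03g124110 and by 35 for Solyc03g026270. The measure compares shape and not size. Solyc03g112810 had a log2 fold change of 0.75 at 1 h, against 3.29 for Solyc03g026280, whereas Solyc06g072550, the next in likeness to Solyc03g124110, had 2.38 at 1 h and 3.01 at 6 h, against 2.49 and 2.94. The other close matches were Solyc08g076870 and Solyc09g074560 for Solyc03g026280 (both r = 0.9984), Solyc06g072550 (r = 0.9972) and Solyc04g074960 (r = 0.9964) for Solyc03g124110, and Solyc07g007830 (r = 0.9967) and Solyc04g007520 (r = 0.9962) for Solyc03g026270.

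Of the 5 nearest genes on each side of the cluster, 9 passed the filter. At 1 h against 0 h, 1 of these was called higher and 3 lower, beside 32.2% and 31.3% of all genes, with log2 fold changes between -1.02 and 1.53 and a median of -0.32. The 1 that rose, Solyc03g026230, had a log2 fold change of 1.53 (edgeR adjusted p = 0.000918) and started 46.4 kb before Solyc03g026270. Like Solyc03g026270 it was called lower from 1 h to 6 h, with a log2 fold change of -1.97 (edgeR adjusted p = 0.00022), and it was not called at 6 h against 0 h (-0.44, edgeR adjusted p = 0.179). After 6 h, 1 was called higher and 5 lower relative to 0 h, with a range of -1.21 to 0.65, and the shares of all genes were 30.9% and 28%. The 6 h value of Solyc03g026270, 0.19, lay inside this range, and those of the other members lay above it. The nearest gene before the cluster, Solyc03g026260, lay on the minus strand and fell by 1.02 at 1 h and by 1.16 at 6 h on the log2 scale (edgeR adjusted p = 0.000158 and 0.000124). The nearest gene behind it, Solyc03g026290, also on the minus strand, changed by -0.03 at 1 h (edgeR adjusted p = 0.869) and rose by 0.65 at 6 h (edgeR adjusted p = 0.00612). From 1 h to 6 h, 2 of the 9 were called higher and 3 lower, beside 34.7% and 31.7% of all genes. The CBF/DREB1 genes between them had log2 fold changes of 2.04 to 3.29 at 1 h.

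**Figure D4:**
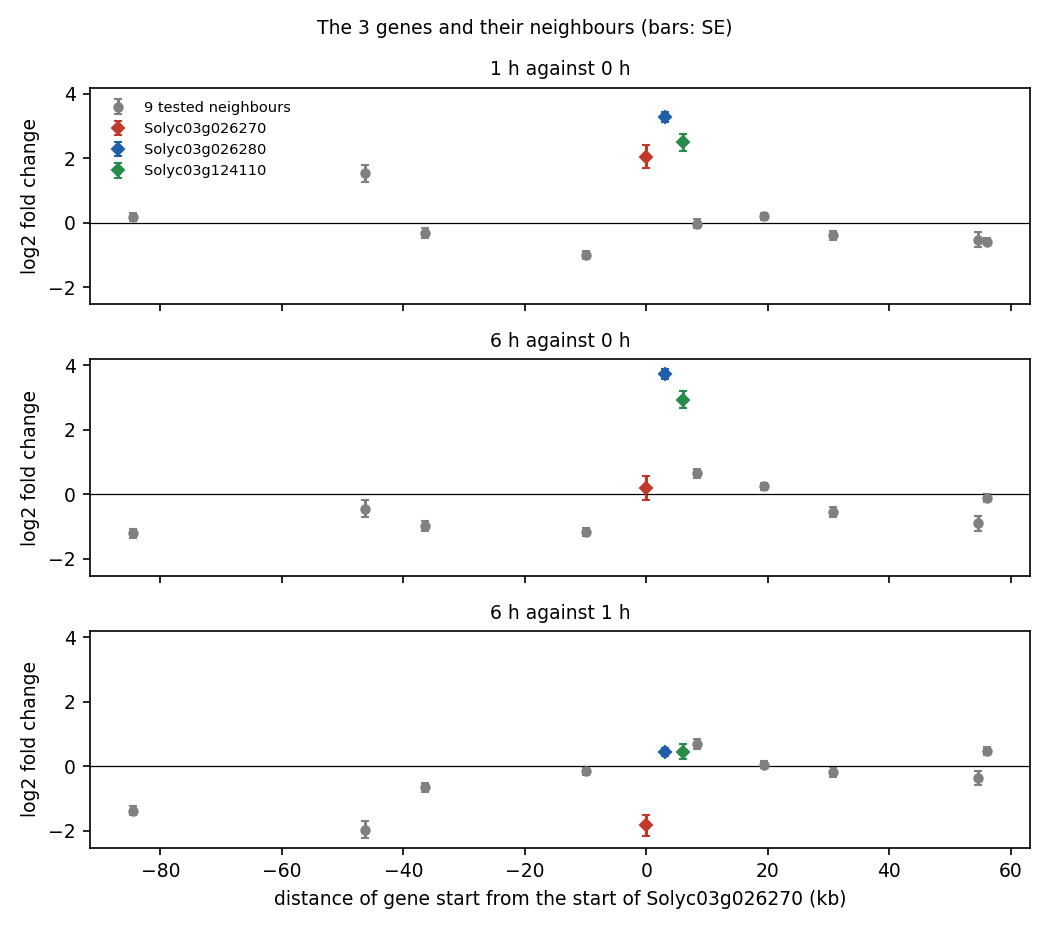
Log2 fold changes (vertical axes, with SE) of the 3 genes and of their 9 tested neighbours against the distance of each gene start from that of Solyc03g026270 in kb, for the 3 comparisons. At 1 h against 0 h the 3 genes lie between 2.04 and 3.29, above all neighbours, whose highest value is 1.53.

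A list of 19 further identifiers was examined for the pathway around the CBF genes. It had been put together to cover regulators that act upstream of CBF genes, light signalling factors, other DREB genes, and dehydrins and other late embryogenesis abundant proteins. No table used here pairs the identifiers with names, so that their place in the pathway was itself not checked against an annotation and no role is given to any of them singly. The counts below are those of 19 identifiers and not of a verified pathway. Of the 19, 17 passed the filter. At 1 h against 0 h, 10 were called higher and 5 lower, beside 32.2% and 31.3% of all genes, with a median log2 fold change of 0.78 against 0.00 for all genes tested. The 6 h libraries gave 5 called higher and 6 lower against 0 h, near the 30.9% and 28% of all genes, with a median of 0.03, equal to that of all genes. From 1 h to 6 h, 6 were called higher and 8 lower, beside 34.7% and 31.7% of all genes, with a median of -0.30 against 0.06. Solyc10g078770, which passed the filter through its 1 h libraries alone, is among those called higher at 1 h and among those called lower from 1 h to 6 h. Calls in the opposite directions could hardly arise for a gene kept in this way. Solyc05g052410 and Solyc06g050520, with at most 19 and 14 counts at 0 h, passed it through heated libraries alone. Both are among those called higher against 0 h at 1 h and at 6 h, and they could hardly have been called lower.

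Within the list, Solyc05g052410 rose at both heat times and lay highest at 6 h. It had 19 and 8 counts before HS, 291 and 252 after 1 h, and 562 and 701 after 6 h. Relative to 0 h its log2 fold change was 4.25 with an SE of 0.300 at 1 h (adjusted p = 7.93e-06 by edgeR) and 5.09 with an SE of 0.295 at 6 h (adjusted p = 7.78e-06 by edgeR). From 1 h to 6 h it was 0.83 with an SE of 0.210 (adjusted p = 0.00763 by edgeR). Solyc10g078770 was detected almost only at 1 h, with 57 counts in each library of that time, 2 and 0 counts at 0 h and 2 in each library of 6 h. No fold is given for it. The largest falls at 1 h were those of Solyc01g108280, by 1.30 on the log2 scale (SE 0.109, edgeR adjusted p = 1.95e-05), and Solyc12g035520, by 1.21 (SE 0.127, edgeR adjusted p = 6.78e-05). After 6 h Solyc01g108280 was still lower than at 0 h, with a log2 fold change of -0.61 (edgeR adjusted p = 0.0015), whereas that of Solyc12g035520 was 0.03 (edgeR adjusted p = 0.867).

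The other list genes called at 1 h were 8 that rose and 3 that fell. Solyc06g050520 rose by 2.56 on the log2 scale, Solyc01g105230 by 1.35, Solyc04g072900 by 1.28, Solyc08g061130 by 1.19, Solyc01g060140 by 1.1 and Solyc12g099340 by 1.07, while Solyc04g082200 and Solyc05g015650 rose by 0.78 and 0.47. Solyc03g118310 and Solyc06g068870 both had a log2 fold change of -1.12, and that of Solyc07g043580 was -0.38. Solyc06g050520 and Solyc08g061130 were also called higher after 6 h, by 2.65 and 1.75 relative to 0 h, and so were Solyc03g118310 (0.61) and Solyc04g072900 (0.45). Solyc04g056270 had the deepest fall of the list at that time, with a log2 fold change of -1.74, followed by Solyc02g084840 (-0.88), Solyc04g082200 (-0.85), Solyc01g105230 (-0.58) and Solyc07g043580 (-0.56). Solyc03g118310, Solyc04g082200 and Solyc01g105230 were thus called in opposite directions at the 2 heat times. Of the 3 CBF/DREB1 genes, none was called lower than at 0 h at either time, which the filter made unlikely for Solyc03g026270 and Solyc03g124110.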

How the data were processed

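Wild-type leaves at 0, 1 and 6 h of HS gave 6 libraries. The authors deposited raw read counts per gene, not normalized and not pooled. Per the file headers, these came from featureCounts 2.0.0 over whole gene spans of the M82 gene models 1.1.0, reverse-stranded, with a mapping quality of at least 30, multi-mapped and overlapping reads allowed and the paired-read option set. Per the labels, the processing notes of the submitters name Trimmomatic 0.38, Bowtie2 2.3.5 and SAMtools 1.9. The study gives single reads and the STAR aligner in its methods, but its alignment statistics list read pairs, so counts may be of reads or of pairs. Duplicates had been removed, which can lower the counts of strongly expressed short genes.

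The filter of the study was used, which keeps a gene when 2 or more libraries reach 50 counts. All 6 libraries were fitted together with edgeR 4.0.16 (R 4.3.3), with TMM factors and two-sided quasi-likelihood F tests. The SE is the log2 fold change divided by the square root of F. CPM used TMM-scaled totals, and correlations used log2 of CPM plus 0.5. The leaf label was not checked against marker genes, since identifiers are unnamed in the tables used here. The text names the 3 members, the list genes called against 0 h, the 3 genes most like each member by r, and the neighbours nearest to the cluster or called higher against 0 h. Alternatives were DESeq2 1.42.0, other scalings and filters, fits to 4 libraries, a block for the replicate number, and the omission of each library in turn. Leaving out libraries with the genes kept over all 6, and the shares of the 3 genes together, were added after the data were seen. The members and lists were chosen with earlier results of these data known. The procedure was also run on simulated counts, with the same spread for all genes and few genes changed. Those settings differ from the data, and no support is drawn from that run.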

Additional observations from a re-analysis of the deposited data

Results flagged for a closer look

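For Solyc03g026270 and Solyc03g026280 the changes at the 2 heat times differed by the direct test of 6 h against 1 h, in opposite directions. The log2 fold change was -1.84 for Solyc03g026270 (edgeR adjusted p = 0.00141) and 0.44 for Solyc03g026280 (edgeR adjusted p = 0.0133). Solyc03g026270 was kept through its 1 h libraries alone, so a call in the other direction could hardly arise for it. Both 6 h libraries lay below both 1 h libraries in the first gene and above them in the second, although the genes start only about 3 kb apart. The difference between the 2 genes was itself not tested. Groups of 2 libraries allow no check for a single library far from the others.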

How the results depend on the processing

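All calls of the 3 genes against 0 h, and that of Solyc03g026270 at 6 h against 1 h, kept their direction and side of the threshold under every alternative that gave a value. The limit that the filter sets on the direction of calls of Solyc03g026270 and Solyc03g124110 holds here too. For Solyc03g026270 leaving out a library gave log2 fold changes between 1.60 and 2.60 at 1 h against 0 h, between -0.27 and 0.75 at 6 h against 0 h and between -2.11 and -1.59 at 6 h against 1 h. The negative values of the second range came without replicate 2 of 0 h (-0.27, or -0.26 with the genes kept over all 6 libraries) and without replicate 1 of 6 h (-0.04 or -0.07), and none was called. At 6 h against 1 h, leaving out a library gave 0.32 to 0.58 for Solyc03g026280, where the call was lost without either 1 h library or replicate 1 of 6 h, and 0.14 to 0.73 for Solyc03g124110, called without replicate 2 of 6 h. The last value was also called under upper-quartile factors (0.68) and total counts alone (0.87), but not under DESeq2 (0.40, adjusted p = 0.208). Where a group was left with 1 library, it was assumed to vary like the others. Without either 1 h library Solyc03g026270 fell under the filter, and with the genes kept over all 6 its 1 h change was 1.95 and 2.12. For the list of 19, only DESeq2, scaling by total counts alone and the replicate block were tried. Under these every count stayed within 1.5 times of the main one.

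The replicate numbers tie samples together only by number. Replicate differences correlated across genes by -0.10 (0 h and 1 h), -0.02 (0 h and 6 h) and 0.20 (1 h and 6 h). With the replicate block the 1 h change of Solyc03g026270 was 2.07, and no call of the 3 genes changed. Depth limits Solyc03g026270 most, with 18 to 46 counts outside 1 h.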

Other observations

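The identifier of Solyc03g124110 stands apart from its place in the table. Solyc numbers mostly run along the chromosome, and the 10 identifiers that end in 0 and come just before it in number on this chromosome, Solyc03g123960 to Solyc03g124060, started between positions 66696545 and 66818208 of chromosome 3. The next lower number present, Solyc03g124064, started at 28922694, so that Solyc03g124110 is not alone in standing apart from this block. The next higher number present, Solyc03g150100, started at 1485985, but it is far off in number as well. Solyc03g124110 started at 3685715, which is 63.0 Mb from the nearest of the 10 identifiers of the block, and it stood between Solyc03g026280 and Solyc03g026290. Whether this reflects the assembly on which the numbers were given or the transfer of gene models to M82 was not tested. A reader who places the gene by its number would take it for a gene unlinked to the other 2 CBF/DREB1 genes.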
